A study of Mus musculus with 2 samples.

Results

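The genes of glycolysis and of the hypoxia response were followed in single GR-1+ cells of mouse breast tumors. Of the 28692 genes listed in the deposited matrices, 35 were taken by symbol from a fixed list: 20 glycolysis members, from the glucose transporter Slc2a1 to the lactate exporter Slc16a3, and 15 hypoxia members, from Vegfa to Higd1a. The rule used the names alone and no measured value. The members and the further lists used below were nevertheless chosen with earlier results of these data known. All 35 were listed and each had at least 50 UMIs (unique molecular identifiers, which count captured transcripts), from 157 for P4ha2 to 20312 for Gapdh. Together they took 1.25% of the UMIs of the kept cells.

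Both libraries came from female BALB/c mice aged 8 to 10 weeks at tumor cell injection. The mice carried tumors of 4T1 cells, a triple-negative mammary carcinoma line, in the mammary fat pad and received anti-PD1 antibody for 2 weeks. By the deposited labels, the library labelled 4T1p came from tumors of the parental line, which resists the antibody. By the same labels, that labelled 4T1m came from tumors of a polyclonal derivative mutagenized with MNNG, which responds to it. GR-1+ myeloid cells were taken from the dissociated tumors by positive selection with magnetic beads and made into 10x Genomics 3′ libraries, 1 for each tumor type. The number of mice behind each library was not given in the sources used here. With 1 library per tumor type there were no replicates, so no difference was tested, and all 95% intervals below cover counting error only.

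Glycolysis splits glucose into pyruvate and yields ATP without oxygen, and lactate dehydrogenase and monocarboxylate transporters then dispose of the pyruvate as lactate. When oxygen falls, prolyl hydroxylases such as those encoded by Egln1 and Egln3 no longer mark the HIF alpha subunits for destruction, and the stabilized HIF dimer binds a short core sequence in the control regions of its targets, which include transporters and enzymes of glycolysis as well as Vegfa and Bnip3. Neutrophils rely on glycolysis for most of their ATP, and macrophages of hypoxic tumor regions are known for HIF target expression.

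The libraries labelled 4T1p and 4T1m held 1641 and 2749 barcodes with a median of 2066 and 2763 UMIs, and shared 0 barcodes. The study states these same medians with the conditions exchanged, so each direction between libraries rests on the deposited labels. Cells were kept if 250 to 5000 genes had a UMI, if their UMI count was 27000 or less and if the mitochondrial share was 12.5% or less. These limits left 1128 and 2092 cells with 5570882 and 10831715 UMIs, of which 518 and 1575 had a UMI of Ptprc, the common leukocyte antigen. The kept cells formed 12 clusters, built without the members and 62 further pathway genes so that member levels did not place the cells. Named from marker lists, 6 clusters (0, 2, 3, 5, 7 and 9) were monocytic-like and 4 (1, 4, 6 and 8) granulocytic-like, and the B cell-like and T cell-like clusters entered none of the comparisons of lineages or libraries. There were 868 and 1014 monocytic-like and 251 and 1022 granulocytic-like cells (4T1p first, then 4T1m, as in every pair of values below). Cluster 2, with Tmem176b, H2-Eb1 and C1qb among the genes that led it, held 34.9% and 11.1% of the monocytic-like cells. The study describes C1q, MHC class II and Tmem176b expression in the monocytic cells enriched in its 4T1m tumors. The clusters here were not matched to those of the study, and an exchange of the labels was not tested. Monocytic markers summed to 45884 and 24239 CPM (counts per 1000000 UMIs of a group of cells) in monocytic-like and to 1187 and 965 CPM in granulocytic-like cells, and granulocytic markers to 960 and 1328 against 159271 and 160686 CPM. B cell and T cell markers stayed at or under 5.58 CPM in both lineages.

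Across the 10 myeloid cell states, the summed members of each list stood highest in cluster 1, a granulocytic-like state. Its cells carried 6 of the 8 granulocytic markers in at least 25% of cells, but no such marker stood among its 10 leading genes. Leading genes are named here and below without the members and the 62 further pathway genes. Those of cluster 1 began with Ccdc126, Ciart, Il15 and Tnfrsf23. The 15 hypoxia members summed to 13176 CPM in cluster 1 of the library labelled 4T1p (95% Poisson interval 12728 to 13635) and to 13387 CPM (13142 to 13636) in that labelled 4T1m. In the other 9 clusters with libraries pooled they summed to between 2203 CPM in cluster 8, led by the granule genes Camp, Ngp and Ltf, and 6433 CPM in cluster 5. The 20 glycolysis members summed to 17988 CPM in cluster 1 of the library labelled 4T1p and 13283 CPM in that labelled 4T1m. The next states were cluster 0 with 15125 CPM and cluster 6 with 12855 CPM in the first library, and cluster 5 with 9225 CPM and cluster 0 with 9095 CPM in the other. With libraries pooled, the single members Gpi1, Aldoa, Tpi1, Gapdh, Pgk1, Eno2, Pkm, Vegfa, P4ha2, Ndrg1 and Mif were highest in a monocytic-like state.

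**Figure D1:**
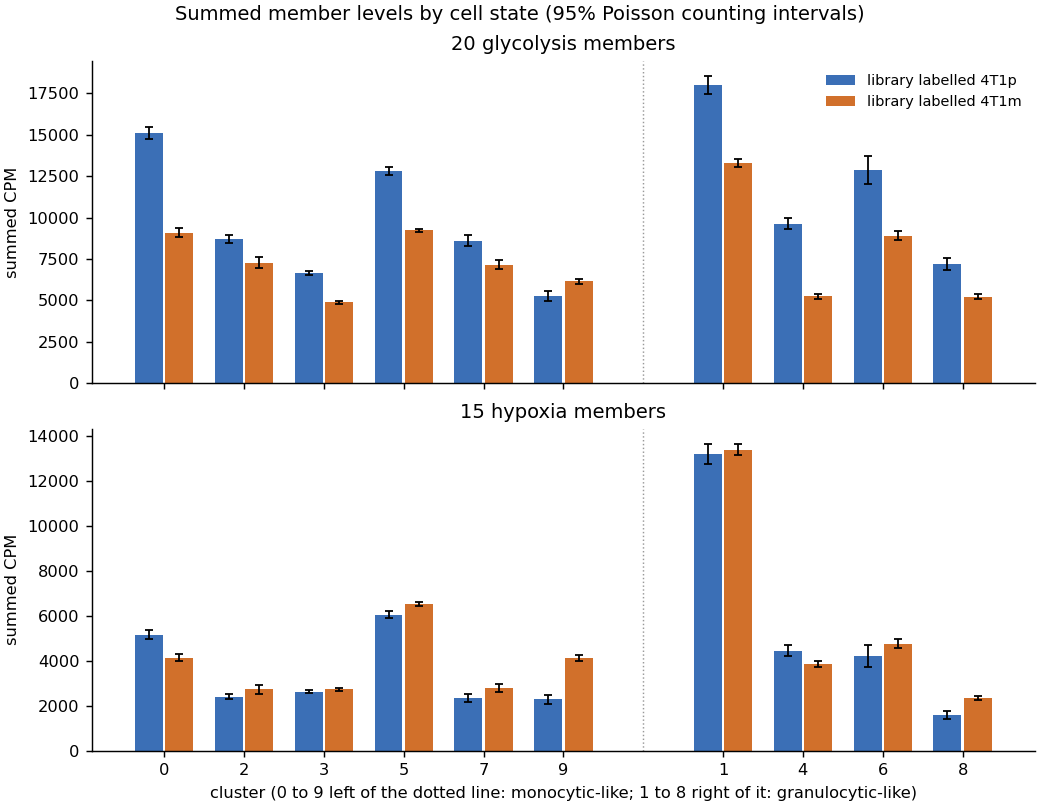
Summed CPM of the 20 glycolysis members (upper panel) and the 15 hypoxia members (lower panel) in each myeloid cluster, with monocytic-like clusters left and granulocytic-like clusters right of the dotted line, blue bars for the library labelled 4T1p, orange bars for that labelled 4T1m and 95% Poisson counting intervals as error bars. The hypoxia members reached 13176 and 13387 CPM in cluster 1, and 6057 and 6531 CPM in cluster 5, the highest monocytic-like state.

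Among the 4 granulocytic-like states, 31 of the 35 members had their highest level in cluster 1, against 36.0% of 4491 genes of at least 50 UMIs. The members were counted without that limit, and the 31 include Eno2 (5 and 14 UMIs in granulocytic-like cells) and P4ha2 (0 and 3). In the libraries taken alone 30 and 31 members were highest in cluster 1, against 38.4% and 35.8% of genes, and 30 of them were the same. These 30 include P4ha2, which had 0 UMIs in all 4 states of the library labelled 4T1p, a tie that was counted for cluster 1. With libraries pooled, the interval of cluster 1 lay above that of the next state in 26 members. The share of all genes that met this interval rule is not given here, so the count has no background. Hilpda, whose product coats lipid droplets and restrains lipolysis, had 4003 CPM in cluster 1 of the library labelled 4T1p and 3792 CPM in that labelled 4T1m. In the next granulocytic-like state it had 823 CPM (cluster 4) and 862 CPM (cluster 6), and the intervals of cluster 1 stood clear of both. Ero1l, an oxidase of disulfide formation in the endoplasmic reticulum, reached 1667 and 2592 CPM against 741 and 730 CPM in cluster 6. Bnip3, a mitophagy receptor, reached 1200.0 and 1164 CPM against 606 and 449 CPM in cluster 6.

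Set against the rest of the granulocytic-like cells, cluster 1 had 20 of 30 members at least 2-fold higher in the library labelled 4T1p (background 18.0% of 1682 genes) and 28 of 33 in that labelled 4T1m (14.9% of 3984 genes). None was at least 2-fold lower, against 12.6% and 13.8% of all genes. A call here and below needed at least 50 UMIs in the groups compared, a 2-fold ratio and a counting interval of the log2 ratio that left out 0. Of the hypoxia members 12 of 13 and 13 of 14 were called higher, with median log2 ratios of 1.85 and 2.18 beside 0.22 and 0.14 for all genes. Of the glycolysis members 8 of 17 and 15 of 19 were called higher, with medians of 1.00 and 1.31.

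By role, Ndrg1, a stress-responsive gene of differentiation, had log2 ratios of cluster 1 over the rest of 2.96 (95% interval 2.38 to 3.58) and 2.80 (2.48 to 3.13). Hilpda had 2.74 (2.56 to 2.92) and 2.42 (2.33 to 2.51). P4ha1, a collagen prolyl hydroxylase, had 2.03 and 2.58, and Egln1, the main oxygen-sensing hydroxylase, 2.14 and 2.13. Vegfa, the endothelial growth factor, had 1.85 and 2.02. All of these steps were beyond 2-fold, with intervals off 0. The vasodilator peptide gene Adm had 96.6 CPM (61.9 to 144) and 57.7 CPM (42.7 to 76.2) in cluster 1, on 24 and 49 UMIs. Clusters 4, 6 and 8 held 1, 0 and 0 of its UMIs in the library labelled 4T1p, with upper Poisson bounds of 18.9, 49.7 and 17.5 CPM, and 5, 2 and 0 in that labelled 4T1m. Among glycolysis members, Ldha, lactate dehydrogenase A, had log2 ratios of 1.51 (1.34 to 1.67) and 1.67 (1.58 to 1.76), and Hk2, an inducible hexokinase, 1.33 and 1.94.

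Among the granulocytic-like states, a few members did not follow this order. Slc2a3, the high-affinity glucose transporter of neutrophils, was highest in cluster 6, led by Steap4, Prok2 and Cxcr2, with 768 and 606 CPM against 201 and 277 CPM in cluster 1. Pfkfb4, a bifunctional kinase and phosphatase that sets the activator of phosphofructokinase, was also highest in cluster 6, with 148 and 153 CPM. Slc16a3, the lactate exporter, was lowest in cluster 1 with libraries pooled, at 478 CPM, and highest in cluster 8 at 687 CPM. In the library labelled 4T1p alone its highest state was cluster 4, at 615 CPM. Hif1a, the oxygen-regulated HIF subunit, was about level between cluster 1 and the rest, with log2 ratios of -0.05 (-0.44 to 0.32) and 0.01 (-0.12 to 0.14). Its highest state was cluster 4 in the library labelled 4T1p (462 CPM) and cluster 6 in that labelled 4T1m (902 CPM).

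**Figure D2:**
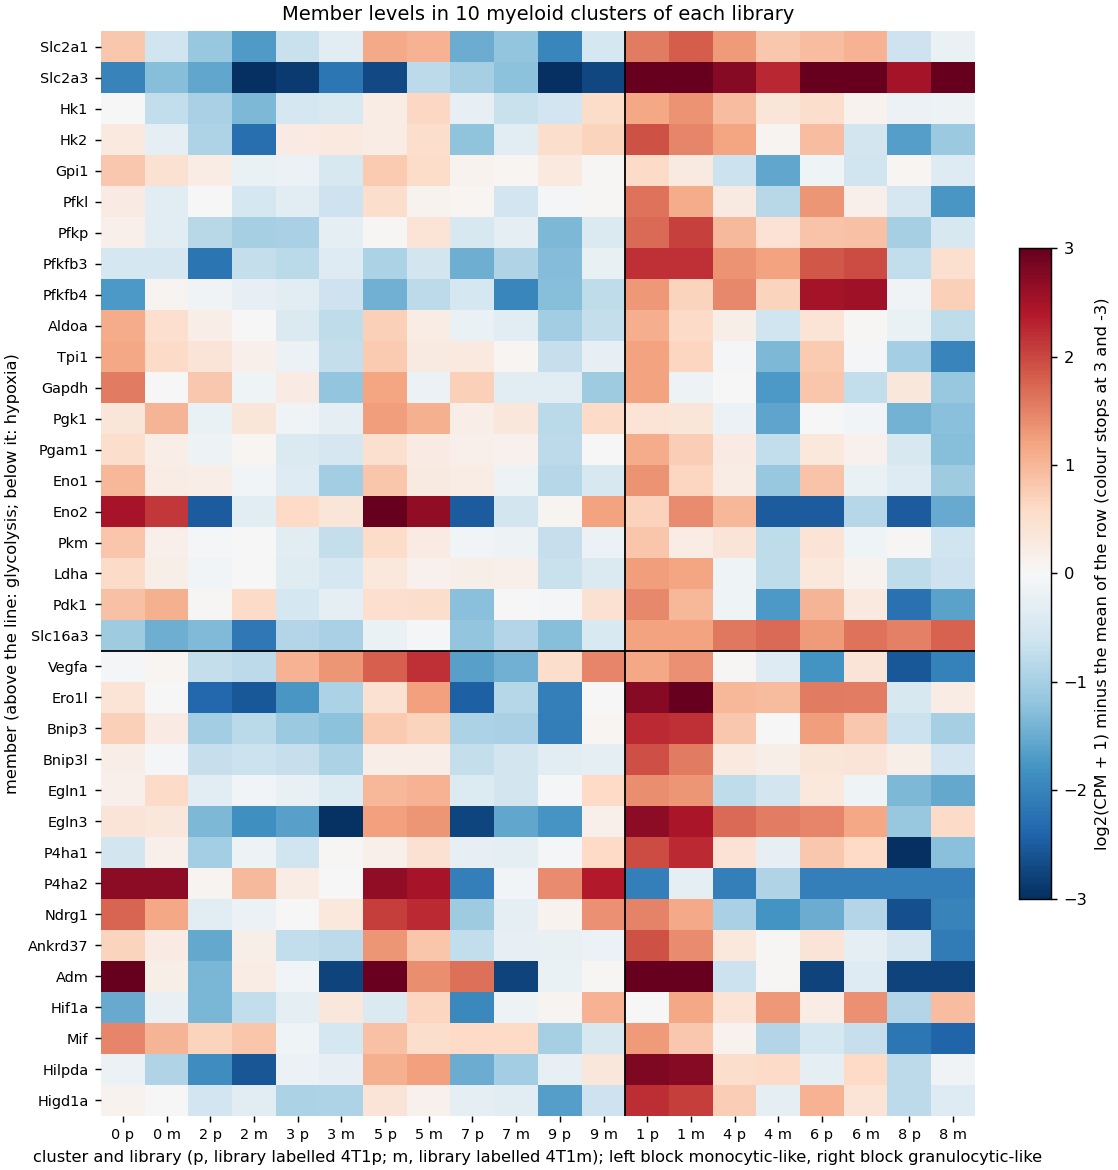
Heat map of the 35 members (rows, glycolysis above the line and hypoxia below it) in the 10 myeloid clusters of each library (columns, p for the library labelled 4T1p and m for that labelled 4T1m), coloured by log2(CPM + 1) minus the mean of the row. The columns of cluster 1 were red for most hypoxia members in both libraries, with Hilpda at 4003 and 3792 CPM, while Slc2a3 was blue in all monocytic-like columns.

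The gradient was visible cell by cell. After each cell was thinned to 1000 UMIs, cells of cluster 1 had a median of 12 hypoxia-member UMIs (415 cells, lower and upper quartile 8 and 18) and a median of 14 glycolysis-member UMIs. The cells of cluster 8 had medians of 2 and 4.5 (176 cells), and those of cluster 5 medians of 6 and 9 (325 cells). In cluster 1 the median of the hypoxia members was 12 in each library, and its 10th percentile of 4 was above the median of clusters 2, 3, 4, 6, 7, 8 and 9. Thinning left out 37 cells of cluster 1, 263 of the 477 cells of cluster 0 and 172 of the 416 cells of cluster 2.

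Among the 6 monocytic-like states, 18 of the 35 members were highest in cluster 5 (background 12.4% of 9031 genes) and 12 in cluster 0 (9.89%). In the libraries taken alone 17 and 23 were highest in cluster 5 (11.8% and 11.1% of genes) and 14 and 8 in cluster 0 (9.39% and 11.8%). Cluster 5 was led by Sdc1, Met, Inhba and Il7r and held 8.64% of the monocytic-like cells of the library labelled 4T1p but 25.2% of those of that labelled 4T1m. Against the rest of the monocytic-like cells, 13 of 33 and 13 of 35 members were called higher there (background 4.91% and 2.90%) and none lower (8.04% and 6.21%). Most were hypoxia members, 10 of 14 and 10 of 15, with medians of 1.34 and 1.16. Vegfa reached 492 and 649 CPM in cluster 5 against 294 and 396 CPM in the next monocytic-like state of each library. Ndrg1 reached 644 and 726 CPM against 516 and 396 CPM, and Egln3 126 and 133 CPM against 70.0 and 67.8 CPM. Glycolysis members called higher in both libraries were Slc2a1, with log2 ratios of 1.68 and 1.59, and the gamma enolase Eno2, with 2.53 (1.81 to 3.25) and 1.88 (1.35 to 2.45).

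Cluster 0 gave different counts in the libraries. It was led by Fabp5, Lgals1 and Slc25a4, followed by AY036118 and Gm42418, which overlap a ribosomal RNA element and which the study removed. The cluster was shallow, with a median of 925 UMIs, and only 19.1% of its cells had a Ptprc UMI. Cluster 2 (median 1168 UMIs, 24.8% with Ptprc) and cluster 7 (1495 UMIs, 26.7%) were shallow as well. All 6 carcinoma markers were present in cluster 0 at a summed 150 CPM, and fibroblast markers at 242 CPM, against at most 64.6 and 7.35 CPM in the other myeloid clusters. Across all monocytic-like cells the carcinoma markers came to 33.3 and 12.4 CPM and the fibroblast markers to 0.641 and 35.8 CPM. Their part in the member levels of cluster 0 was not tested. In the library labelled 4T1p 10 of 33 members were called higher there than in the rest of the monocytic-like cells and 2 lower (background 2.40% and 10.6%). In that labelled 4T1m 0 of 35 were called higher and 4 lower (background 2.83% and 9.85%). Aldoa, an aldolase, had 2150.0 and 1404 CPM in cluster 0, and the cytokine gene Mif 2194 and 1604 CPM, each the highest monocytic-like level in its library. Ero1l had 334 and 251 CPM, and log2 ratios over the rest of 1.49 and -0.49. The glycolysis members summed to 15125 and 9095 CPM in cluster 0 and the hypoxia members to 5161 and 4142 CPM.

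The promoters of the members were read for the HIF core as a description only, since the rule for the members had not used their sequences. RefSeq promoters on build GRCm38.p6, from 250 bases before to 50 after a transcription start, were listed for 32 of the 35 members, and the one nearest to the annotated 5′ end of the gene was taken. Slc2a3, Bnip3l and Ndrg1 had none. The letters searched were ACGTG and GCGTG on both strands, and matches may overlap, as they do where CACGTG is read on both strands. At least 1 match stood in 25 of the 32 promoters, or 78.1%, and in 43.8% of all 32851 promoters of the table. Of the hypoxia members 12 of 13 had a match, and of the glycolysis members 13 of 19. The members' promoters held a median of 22.5 CpG against 7 in all promoters, and both letter strings contain a CpG, so the shares are not comparable at equal base composition. Below are 5 members with their highest granulocytic-like level in cluster 1 of both libraries, and Hif1a, which lacked that step, with the matches in capitals. They lay at chr7:46845554-46845853 on the plus strand (Ldha), chr7:138909457-138909756 on the minus strand (Bnip3), chr14:45318523-45318822 on the minus strand (Ero1l, listed by RefSeq as Ero1a), chr9:121857747-121858046 on the minus strand (Higd1a), chr6:29272238-29272537 on the plus strand (Hilpda) and chr12:73907617-73907916 on the plus strand (Hif1a).
Ldha: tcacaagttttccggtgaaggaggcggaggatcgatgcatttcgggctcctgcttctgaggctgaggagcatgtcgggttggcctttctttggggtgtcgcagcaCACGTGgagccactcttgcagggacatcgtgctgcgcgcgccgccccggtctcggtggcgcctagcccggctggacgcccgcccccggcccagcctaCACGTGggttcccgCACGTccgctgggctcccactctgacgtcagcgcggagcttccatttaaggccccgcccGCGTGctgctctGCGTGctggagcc
Bnip3: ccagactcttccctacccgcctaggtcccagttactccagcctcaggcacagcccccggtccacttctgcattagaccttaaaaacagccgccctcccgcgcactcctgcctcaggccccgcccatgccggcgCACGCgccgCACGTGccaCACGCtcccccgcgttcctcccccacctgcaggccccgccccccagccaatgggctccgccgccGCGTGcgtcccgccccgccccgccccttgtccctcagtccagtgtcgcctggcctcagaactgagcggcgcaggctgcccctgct
Ero1l: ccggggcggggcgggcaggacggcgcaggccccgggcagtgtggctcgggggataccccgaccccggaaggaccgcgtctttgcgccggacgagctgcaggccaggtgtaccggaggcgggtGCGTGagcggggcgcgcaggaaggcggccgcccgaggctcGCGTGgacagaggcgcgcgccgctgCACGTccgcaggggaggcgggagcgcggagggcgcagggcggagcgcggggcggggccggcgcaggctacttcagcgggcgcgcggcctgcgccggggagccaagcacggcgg
Higd1a: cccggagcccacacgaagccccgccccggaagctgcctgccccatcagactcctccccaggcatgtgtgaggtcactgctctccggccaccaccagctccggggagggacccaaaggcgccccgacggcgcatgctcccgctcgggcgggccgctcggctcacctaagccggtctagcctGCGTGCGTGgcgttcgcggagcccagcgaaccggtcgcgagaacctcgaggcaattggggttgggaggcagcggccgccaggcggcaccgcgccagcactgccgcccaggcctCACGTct
Hilpda: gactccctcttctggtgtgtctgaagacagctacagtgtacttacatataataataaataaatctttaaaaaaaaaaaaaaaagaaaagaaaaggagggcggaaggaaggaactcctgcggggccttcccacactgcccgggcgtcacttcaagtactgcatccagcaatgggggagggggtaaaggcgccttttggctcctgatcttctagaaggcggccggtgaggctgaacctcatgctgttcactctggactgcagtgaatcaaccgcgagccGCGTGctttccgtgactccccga
Hif1a: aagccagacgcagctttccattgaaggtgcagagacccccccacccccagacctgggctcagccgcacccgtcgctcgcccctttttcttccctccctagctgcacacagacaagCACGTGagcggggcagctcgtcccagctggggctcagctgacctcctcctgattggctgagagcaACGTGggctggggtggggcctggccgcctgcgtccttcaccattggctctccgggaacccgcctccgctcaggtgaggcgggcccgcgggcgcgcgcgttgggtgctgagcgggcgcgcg
Ldha held 7 matches, the most of any member, and Bnip3 5, Ero1l 3, Higd1a 3 and Hilpda 1. Hif1a held 3 as well, so the number of matches in this window did not separate it from the members that stepped up in cluster 1. Hk1, Gpi1, Aldoa, Tpi1, Pkm, Vegfa and Eno2 held no match in this window. All of these except Eno2 also had their highest granulocytic-like level in cluster 1 of both libraries. For Hk1, Aldoa, Pkm and Vegfa 2, 3, 2 and 2 promoters were listed, and only the nearest was read. The windows of Hk1 and Aldoa held 1 and 0 CpG. Vegfa and Eno2 were both highest in cluster 5 among monocytic-like states.

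Between the lineages the members as a group leaned toward granulocytic-like cells, while most genes leaned the other way. In the library labelled 4T1p 1 of 34 members was called higher in monocytic-like cells and 15 lower, against 47.8% and 11.1% of 7115 genes. In that labelled 4T1m 5 of 35 were called higher and 8 lower, against 54.2% and 10.5% of 8566 genes. The median log2 ratio of monocytic-like over granulocytic-like CPM was -0.73 and -0.16 for the members and 0.99 and 1.21 for all genes. It was -0.53 and 0.02 for the glycolysis members and -1.12 and -0.67 for the hypoxia members. In the library labelled 4T1m the glycolysis members were thus split, with 9 intervals above 0 and 8 below. TMM scaling, which sets the bulk of genes to equal levels, shifted all ratios by -0.54 and -0.85. It left 0 and 2 members called higher and 22 and 18 lower. The shift moved every gene, so the shares of all genes above do not apply to these counts, and shares after the scaling are not given here. CPM without mitochondrial, ribosomal protein and ribosomal RNA genes brought the members' median in the library labelled 4T1m to 0.04.

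Transcripts for glucose uptake and lactate export differed between the lineages. Slc2a3 had 3.42 CPM in monocytic-like and 215 CPM in granulocytic-like cells of the library labelled 4T1p, and 7.75 and 267 CPM in that labelled 4T1m. Its log2 ratios were -5.98 (95% interval -6.81 to -5.24) and -5.11 (-5.52 to -4.72), the lowest of any member in both libraries. Slc16a3 had 116 against 558 CPM and 145 against 626 CPM, ratios of -2.26 and -2.11 with intervals that left out 0. Slc2a1, the widely expressed glucose transporter, was closer, at 185 against 411 CPM and 249.6 against 391 CPM. The regulators of phosphofructokinase were called lower in both libraries as well, with Pfkfb3 at 44.2 against 243 CPM and 62.7 against 252 CPM and Pfkfb4 at ratios of -1.94 and -1.88. Of the enzymes of the trunk of the pathway, Aldoa, Tpi1, Gapdh, Pgam1, Eno1, Pkm and Ldha ranged from -0.52 to 0.07 in the library labelled 4T1p and from -0.27 to 0.42 in that labelled 4T1m. The isomerase gene Gpi1 had 0.20 (0.06 to 0.34) and 0.59 (0.50 to 0.68). Pgk1, phosphoglycerate kinase, had 0.45, with an interval that held 0, and 1.19 (0.79 to 1.61), and was called higher in monocytic-like cells of the library labelled 4T1m, where TMM scaling (0.34) and cells thinned to 1000 UMIs (0.78) ended the call.

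The hypoxia members split. Ero1l had 139 CPM in monocytic-like against 789.9 CPM in granulocytic-like cells of the library labelled 4T1p and 345 against 1025 CPM in that labelled 4T1m, log2 ratios of -2.51 (-2.67 to -2.35) and -1.57 (-1.65 to -1.50). Egln3, an inducible oxygen-sensing hydroxylase, had -2.21 and -1.19, and Higd1a, a mitochondrial stress protein, -1.67 and -1.10, so that these 3 members were called lower in both libraries. Hilpda had 558 against 1619.7 CPM and 829 against 1535 CPM. In the other direction, Vegfa had 268 against 157 CPM and 442 against 166 CPM, ratios of 0.77 (0.51 to 1.04) and 1.41 (1.28 to 1.55). Ndrg1 had 262 against 168 CPM and 447 against 127 CPM, ratios of 0.64 and 1.82. P4ha2, a collagen prolyl hydroxylase, was detected mostly in monocytic-like cells, with 44 against 0 UMIs and 110 against 3 UMIs. The count of 0 of 827918 UMIs had an exact Poisson upper bound of 4.46 CPM. Of the 34 members tested in both libraries Eno2 alone was called higher in monocytic-like cells of both, on 70 against 5 and 147 against 14 UMIs, with ratios of 1.31 (0.02 to 2.97) and 2.18 (1.39 to 3.08). In the library labelled 4T1p this call was lost with log-normalization before clustering, TMM scaling, cells weighted equally, cells thinned to 1000 UMIs, a mitochondrial share of at most 5% or a minimum of 200 UMIs, and in that labelled 4T1m with the thinning and that minimum.

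Several members were called lower in monocytic-like cells of the library labelled 4T1p alone. The phosphofructokinase subunit gene Pfkp had log2 ratios of -1.57 (-1.80 to -1.33) and -0.97 (-1.10 to -0.84), and the hexokinase gene Hk1 had -1.13 and -0.39. Of the mitophagy receptors, Bnip3 had -1.63 and -0.85 and Bnip3l -1.38 and -0.79. These were called in 1 library because the other value fell inside the 2-fold limit, and the difference between the libraries was not tested. Pdk1, the kinase that holds pyruvate dehydrogenase inactive, had -0.54 (-1.13 to 0.09) and 0.52 (0.14 to 0.92), and Ankrd37, a HIF target of little known function, -0.93 and 0.01. Neither was called in either library.

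**Figure D3:**
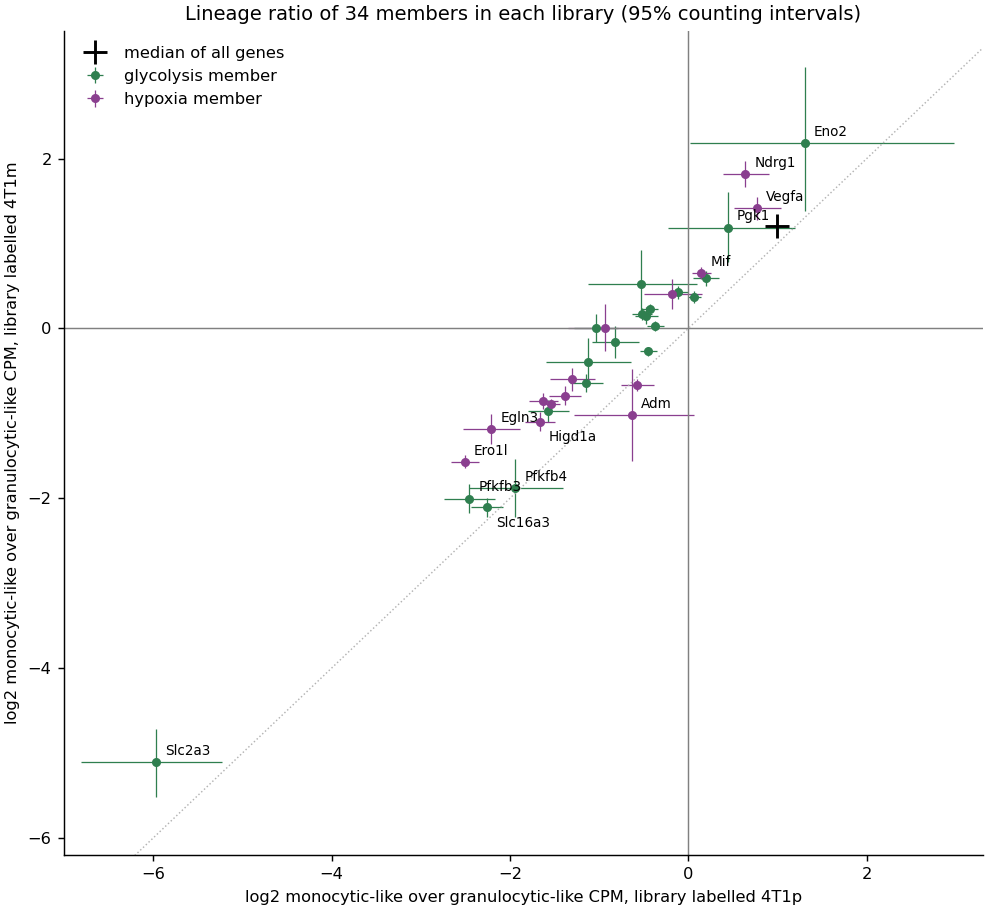
Log2 ratio of monocytic-like over granulocytic-like CPM for the 34 members with at least 50 UMIs in both libraries, that labelled 4T1p on the horizontal and that labelled 4T1m on the vertical axis, with 95% counting intervals as bars; green marks glycolysis and purple hypoxia members, the cross the median of all genes (0.99 and 1.21), and the dotted line equal ratios. Slc2a3 stood at the lower left (-5.98 and -5.11) and Eno2 at the upper right (1.31 and 2.18).

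Several isoenzyme shares, which do not depend on the CPM total, separated the lineages in both libraries. Not all did, as the lineage log2 ratios of Bnip3 (-1.63 and -0.85) and Bnip3l (-1.38 and -0.79) were close. Of the UMIs of Slc2a1, Slc2a3 and the lysosomal transporter Slc2a6, Slc2a3 took 1.68% and 2.84% in monocytic-like and 32.4% and 36.5% in granulocytic-like cells. Among the oxygen-sensing hydroxylases Egln1, Egln2 and Egln3, Egln3 took 22.3% and 29.3% against 57.5% and 57.3%. Ldhb, the subunit that favours lactate oxidation, took 4.21% and 2.24% of lactate dehydrogenase UMIs in monocytic-like and 0.085% and 0.205% in granulocytic-like cells. The lactate importer Slc16a1 took 8.56% and 10.7% of the Slc16a1 and Slc16a3 UMIs in monocytic-like cells and 0% (0 of 462 UMIs, exact binomial upper bound 0.795%) and 0.201% in granulocytic-like cells. Within a lineage the shares moved with state. Hk2 took 30.5% of hexokinase UMIs in cluster 8 and 61.9% in cluster 1, and Hk3, a hexokinase of leukocytes, 47.6% and 19.9%. Slc2a3 took 58.0% of the glucose transporter UMIs in cluster 6 and 26.9% in cluster 1.

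Between the libraries, few members passed the 2-fold limit. Pooled over clusters, the lists and lineages leaned in different directions. In monocytic-like cells 3 of 35 members were called higher in the library labelled 4T1m and 2 lower (background 7.54% and 1.86% of 9031 genes), and in granulocytic-like cells 1 of 33 was called higher and 1 lower (6.32% and 3.25% of 4491 genes). By intervals alone, 13 of 15 hypoxia members lay above 0 in monocytic-like cells and 2 below, and of the 20 glycolysis members 10 lay above and 6 below, against 33.9% and 19.0% of genes. In granulocytic-like cells 2 of 14 hypoxia members lay above 0 and 7 below, and of 19 glycolysis members 2 lay above and 10 below, against 20.7% and 15.2% of genes. The median log2 ratio of the members was 0.39 in monocytic-like and -0.35 in granulocytic-like cells, beside 0.11 and 0.06 for all genes. Within single clusters the median of the tested members was below 0 in clusters 0, 2, 3, 5 and 7 (-0.41 to -0.01) and 0.66 in cluster 9. Among granulocytic-like clusters it was below 0 in clusters 1, 4 and 6 (-0.66 to -0.21) and 0.26 in cluster 8. All genes had medians of 0.004 to 0.17 in the monocytic-like and 0.05 to 0.24 in the granulocytic-like clusters. The summed hypoxia members stood at 3385 CPM in the library labelled 4T1p and 4599.5 CPM in that labelled 4T1m in monocytic-like cells, a log2 ratio of 0.44 (0.42 to 0.47). In granulocytic-like cells they stood at 6307 and 6053 CPM, a ratio of -0.06 (-0.10 to -0.01). Within single granulocytic-like clusters this ratio was 0.02 in cluster 1, -0.20 in cluster 4, 0.18 in cluster 6 and 0.56 in cluster 8, with a median of 0.10. The pooled direction thus held within cluster 4 alone. The summed glycolysis members stood at 8795 and 7387 CPM in monocytic-like cells and at 11810.3 and 7935 CPM in granulocytic-like cells, ratios of -0.25 (-0.27 to -0.23) and -0.57 (-0.61 to -0.54). Without Gapdh the ratios were -0.06 and -0.44.

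Among the 18 members with at least 50 UMIs in all 10 clusters, only Gapdh and Hif1a had every interval on 1 side of 0. Gapdh, glyceraldehyde-3-phosphate dehydrogenase (mm10 chromosome 6, 125161715 to 125166467, minus strand), had 2062 CPM in monocytic-like cells of the library labelled 4T1p and 907 CPM in that labelled 4T1m, and 1966 and 704 CPM in granulocytic-like cells. The log2 ratios were -1.18 (-1.23 to -1.14) and -1.48 (-1.57 to -1.39). It was lower in each of the 10 clusters, from -1.75 in cluster 4 to -0.75 in cluster 9, with every interval below 0. Of 708 genes with at least 50 UMIs in each cluster, 10 had intervals below 0 in all 10, or 1.41%. Hif1a (chromosome 12, 73901375 to 73947530, plus strand) had 236 and 492 CPM in monocytic-like cells and 351 and 781 CPM in granulocytic-like cells, ratios of 1.06 (0.96 to 1.16) and 1.15 (0.98 to 1.33). It was higher in each of the 10 clusters, from 0.64 in cluster 2 to 1.80 in clusters 7 and 8, with every interval above 0, as for 17 of the 708 genes, or 2.40%. By direction alone 12.4% of those genes were higher and 9.46% lower in all 10 clusters. Among cells with a Ptprc UMI, Gapdh kept all 10 intervals below 0 and Hif1a 9 of 10 above 0. Depth differed between the libraries, with median UMIs of 1601 and 3756 in monocytic-like and 2717 and 2482 in granulocytic-like cells. The share of cells with a Ptprc UMI was 38.5% and 60.0% in monocytic-like and 70.1% and 89.2% in granulocytic-like cells. The mitochondrial share moved with the library as well, its median being 3.15% and 4.74% in monocytic-like and 2.74% and 3.42% in granulocytic-like cells. Among cells with at most 5% mitochondrial UMIs Gapdh again had 10 of 10 intervals below 0 and Hif1a 9 of 10 above 0.

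**Figure D4:**
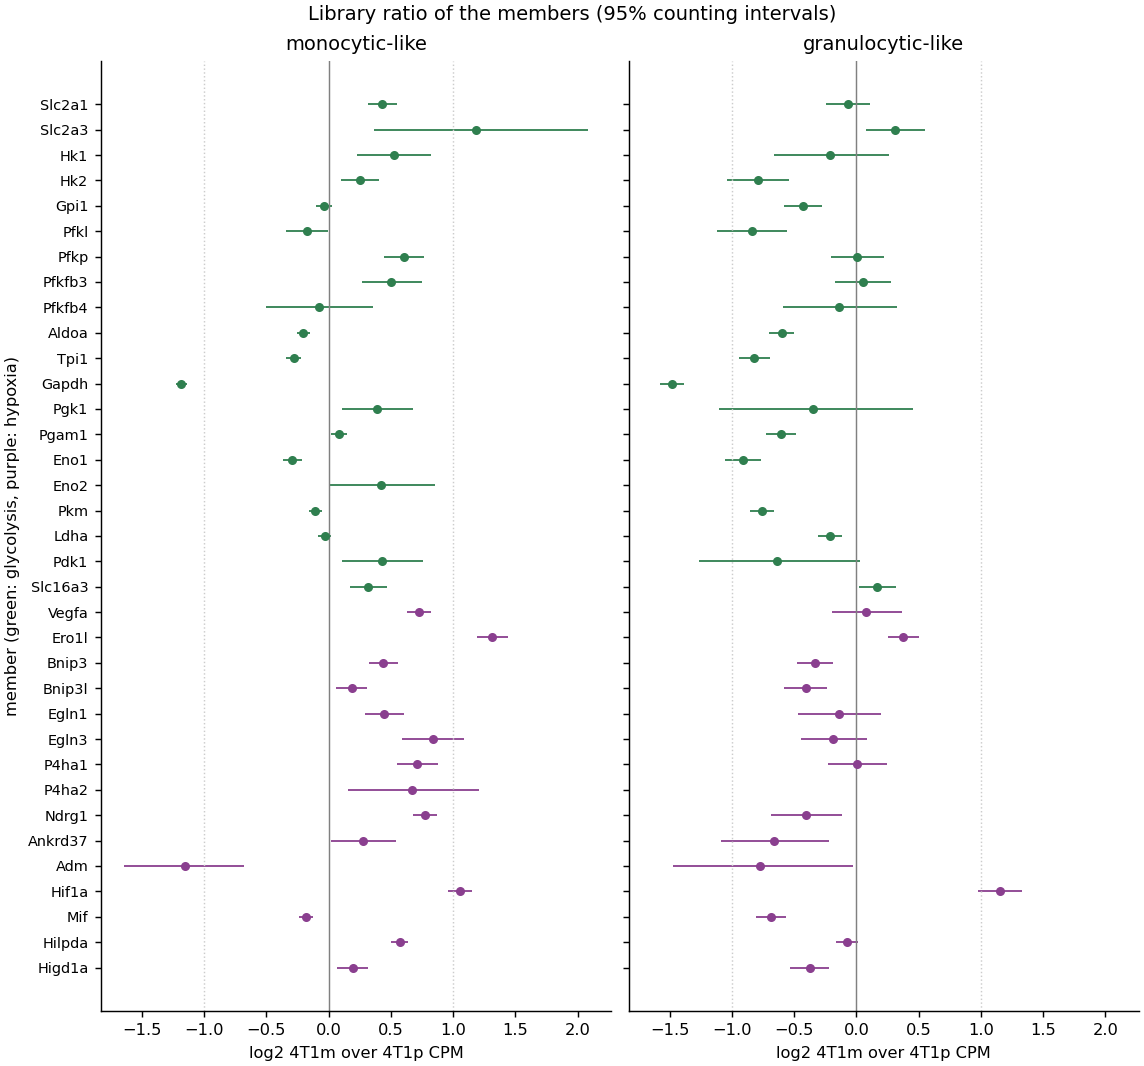
Log2 ratio of the library labelled 4T1m over that labelled 4T1p for the members in monocytic-like (left) and granulocytic-like (right) cells, with 95% counting intervals; green marks glycolysis and purple hypoxia members, and the dotted lines the 2-fold limits. Members under 50 UMIs in a lineage are not drawn. Gapdh lay at -1.18 and -1.48 and Hif1a at 1.06 and 1.15.

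Other members called between the libraries were less even. Ero1l had 139 and 345 CPM in monocytic-like cells, a ratio of 1.31 (1.19 to 1.44), but within the 6 monocytic-like clusters the ratio ran from -0.41 in cluster 0 to 2.06 in cluster 9, with a median of 0.79. Without cluster 5 it was 0.77. Slc2a3 (16 and 57 UMIs) had a ratio of 1.18 (0.36 to 2.08) and Adm (91 and 64 UMIs) one of -1.16 (-1.64 to -0.68). With cells weighted equally Slc2a3 turned to -0.23, and with cells thinned to 1000 UMIs Adm turned to 0.40. Among the trunk enzymes, Gpi1 was lower in each of the 10 clusters (-0.91 to -0.04), with 7 intervals below 0, and Eno1, Tpi1 and Aldoa were lower in 9 of 10, with cluster 9 as the exception.

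In the library labelled 4T1m, monocytic-like cells had a higher hypoxia sum and a larger share of cluster 5 than in that labelled 4T1p. The part of the cluster shares in that sum was not tested. Cluster 5 gave 17.1% of monocytic-like UMIs in the library labelled 4T1p and 42.0% in that labelled 4T1m. Without cluster 5 the log2 ratio of the summed hypoxia members was 0.17 (0.14 to 0.21), and within it 0.11 (0.06 to 0.15). Cluster 3 gave 50.6% and 30.1% of monocytic-like UMIs, and the ratio was 0.38 without it and 0.05 within it. Without cluster 0 the ratio was 0.53. Within the single monocytic-like clusters the ratio ran from -0.32 in cluster 0 to 0.85 in cluster 9, with a median of 0.14. For Vegfa the lineage ratio of 0.72 (0.63 to 0.82) compares with 0.40 within cluster 5 and 0.28 within cluster 3, for Ndrg1 0.77 with 0.17 and 0.33, and for Hilpda 0.57 with 0.15 and -0.07. Red cell markers differed too, from 10.7 CPM in monocytic-like cells of the library labelled 4T1p to 1400.1 CPM in those of that labelled 4T1m, and with libraries pooled they had 3890 CPM in cluster 7 and 2002 CPM in cluster 5 among monocytic-like and 1117 CPM in cluster 4 among granulocytic-like clusters. Platelet markers (Ppbp, Pf4 and Itga2b) had 461 and 823 CPM in monocytic-like cells, and with libraries pooled 3081 CPM in cluster 9 and 807 CPM in cluster 5. Of these 3 genes, 1 had no UMI in monocytic-like cells of the library labelled 4T1m. The part of either list was not tested.

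Within single clusters, the most members were called in clusters 4 and 9. In cluster 4, led by Hdc, Mirt1, G0s2 and Csf1, 7 of 30 members were called lower in the library labelled 4T1m and 0 higher (background 4.86% and 8.17%). They were the glycolysis members Hk2, Pfkl, Tpi1, Gapdh, Eno1 and Pkm and the hypoxia member Higd1a. Tpi1, triosephosphate isomerase, had 673 CPM there in the library labelled 4T1p and 273 CPM in that labelled 4T1m, and Eno1, alpha enolase, 534 and 205 CPM. In cluster 9, led by the resident macrophage genes Cd163, Lyve1 and Cbr2, 6 of 27 members were called higher in the library labelled 4T1m and 0 lower (5.36% and 2.57%). They were the hypoxia members Ero1l, Bnip3, Egln3, Ndrg1 and Higd1a and the glucose transporter Slc2a1. Bnip3 had 59.8 and 266 CPM there, a ratio of 2.15 (1.32 to 3.12), and Ndrg1 165 and 396 CPM. Cluster 9 held 20 cells of the library labelled 4T1p and 89 of the other, and the lowest of these counts was 3 UMIs, for Egln3.

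**Figure D5:**
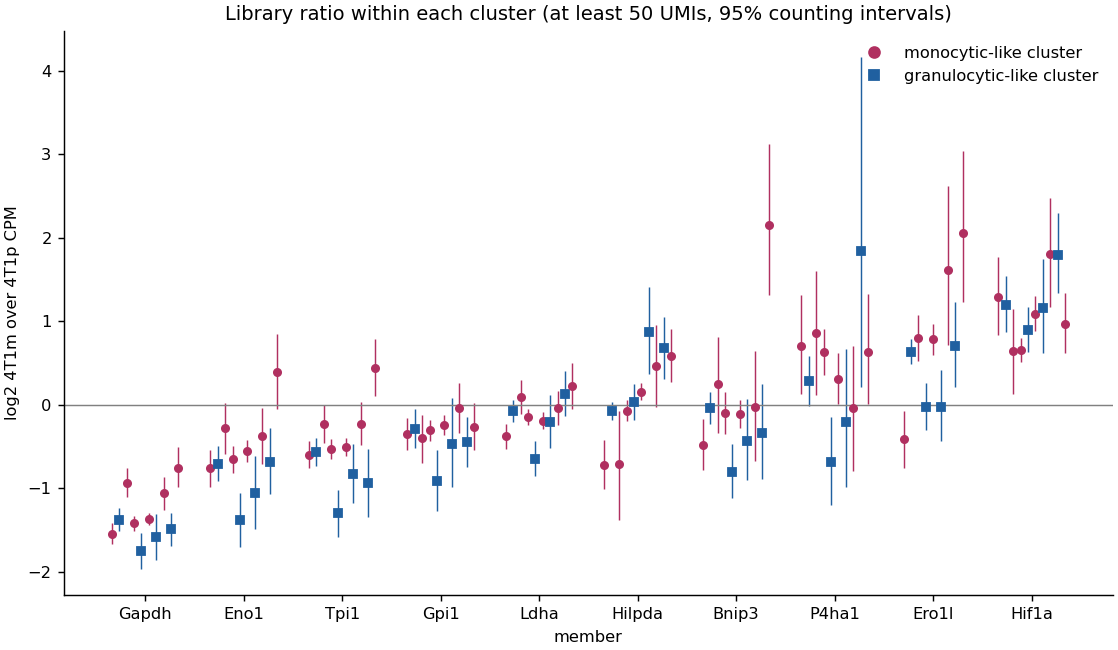
Log2 ratio of the library labelled 4T1m over that labelled 4T1p for 10 members within each myeloid cluster with at least 50 UMIs of the gene, with 95% counting intervals; circles are monocytic-like and squares granulocytic-like clusters, in order of cluster number. All points of Gapdh lay below 0 (-1.75 to -0.75) and all points of Hif1a above it (0.64 to 1.80), while those of Ero1l and Bnip3 fell on both sides.

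Further genes of the pathways, from lists not used to choose the members, were followed in the same comparisons. Of 32 other glycolysis and sugar genes, 17 and 20 had enough UMIs for the lineage comparison. Of these 4 and 7 were called higher in monocytic-like cells and 4 and 4 lower, against 47.8% and 54.2% of all genes higher and 11.1% and 10.5% lower. Pygl, the glycogen phosphorylase of liver and leukocytes, had 62.8 against 237 CPM and 97.5 against 298 CPM, and Adpgk, an ADP-dependent glucokinase, 19.2 against 94.2 CPM and 18.6 against 59.0 CPM. Aldoc, the brain aldolase, went the other way, with 40.1 against 3.62 CPM and 35.8 against 3.16 CPM. Of 30 other hypoxia genes, 21 and 22 were tested, 4 and 8 were called higher and 6 and 6 lower, against the same shares of all genes. Nfil3, a transcription factor of leukocytes, had log2 ratios of -2.08 and -1.93. Between the libraries only Tfrc (ratio 1.10) and Rora (1.12) were called in monocytic-like cells, both higher, where 21 other glycolysis and 23 other hypoxia genes were tested and 7.54% of all genes were called higher and 1.86% lower. Only G6pdx (1.33), the entry enzyme of the pentose phosphate path, was called in granulocytic-like cells, where 14 and 15 were tested and 6.32% of all genes were called higher and 3.25% lower.

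The other pathway genes were also set against cluster 1, where 18.0% and 14.9% of all genes were called higher and 12.6% and 13.8% lower. Of the other hypoxia genes 5 of 9 and 7 of 13 were called higher there than in the rest of the granulocytic-like cells, and 0 lower. Of the other glycolysis and sugar genes 1 of 7 and 4 of 14 were called higher and 5 and 6 lower. Their median log2 ratios were -1.33 and -0.99, beside 1.00 and 1.31 for the glycolysis members.

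Over the 22 points given by the clusters with at least 20 cells in a library, the B cell-like and T cell-like clusters of the library labelled 4T1m among them, the genes whose log2(CPM + 1) followed the summed glycolysis members most closely among 6335 genes were Ftl1, the ferritin light chain (Pearson 0.93), Esd (0.88), Chmp2a (0.88), Eif4ebp1, a brake on cap-dependent translation (0.86), and Impa2 (0.86). For the summed hypoxia members they were Cstb, an inhibitor of cathepsins (0.90), Bsg, the chaperone of lactate transporters (0.89), F10, coagulation factor X (0.88), Soat1 (0.87) and Fnip2 (0.87). These points share libraries and depth, so the values are descriptions. Of the members themselves, Aldoa (0.98), Eno1 (0.96) and Pgam1 (0.95) lay closest to the glycolysis sum, which contains them, and Slc2a3 farthest (0.22). Higd1a (0.90) lay closest to the hypoxia sum, and P4ha2 (0.26) and Hif1a (0.35) farthest.

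Near-identical copies limit some members. Eno1b, listed apart from Eno1, had 58 and 108 UMIs beside 2964 and 4271 of Eno1, and Pgk1-rs7 had 32 and 48 UMIs beside 175 and 383 of Pgk1. Reads that match both copies of such a pair may be lost in counting, so the levels of Pgk1 and Eno1 are uncertain to that extent. Gapdh also has many processed pseudogenes in the mouse genome, and their part in its level was not tested.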

How the data were processed

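The deposited matrices hold raw counts, which the authors made by aligning the reads to mm10 and counting UMIs with Cell Ranger. The matrix header gives version 3.1.0, which differs from the version in the study's methods. Only barcodes that Cell Ranger called as cells are in them, so low-RNA cells may be missing. 58 gene symbols occur more than once in the features, and no column was left unmapped (0). The limits on genes, UMIs and mitochondrial share were those of the study. The study also required a Ptprc UMI, removed doublets with scDblFinder and removed the genes Gm42418 and AY036118. Here Gm42418 and AY036118 were left out of all clusterings but stayed in the UMI sums and the CPM total. The Ptprc and doublet steps were not part of the main analysis. Alternatives required a Ptprc UMI, removed doublets by Scrublet or left those genes out of the CPM total.

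Counts were normalized with SCTransform (version 1 model, mitochondrial share regressed out, 3000 variable genes less the members and the 62 other pathway genes) and clustered on 11 principal components at resolution 0.8 (Seurat 5.3.0, sctransform 0.4.2, Matrix 1.6.5, R 4.3.3). Clusters were named from the marker lists. No doublets were removed. The highest Scrublet scores (scanpy 1.11.5), 1% per 1000 barcodes of a library, were removed as an alternative. UMIs were summed over the cells of a group and given as CPM with exact 95% Poisson intervals. Ratios were given with exact binomial intervals. Upper bounds for counts of 0 were exact. Ratios were called by the rule stated in the text, and percentages beside counts are the share of all genes called by that rule. The code was tested on simulated data. With 1 library per tumor type, no p-value was computed.

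All 35 members may be named. Of the other pathway genes, those called with the largest ratios (at most 5 in each direction) and the isoenzymes of members may be named, and the genes most like a list were the 5 outside both lists with the highest Pearson correlation of log2(CPM + 1) among genes of at least 200 UMIs, over clusters with at least 20 cells in a library. Members and lists were chosen with earlier results of these data known. Gene places are those of GENCODE vM21 on GRCm38, and promoters those of RefSeq. The alternatives were other limits on cells, other clusterings, lineage from the marker UMIs of each cell, other scalings (edgeR 4.0.16 for TMM), equal weight for cells, thinning to 1000 UMIs and other call limits. Computations used Python 3.11.15, numpy 2.4.6, scipy 1.17.1, pandas 2.3.3 and matplotlib 3.10.9.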

Additional observations from a re-analysis of the deposited data

Results flagged for a closer look

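The members had UMIs in barcodes outside the limits on cells, which no comparison used. Barcodes above the UMI or gene limit (57 in the library labelled 4T1p and 59 in that labelled 4T1m) held summed glycolysis members at 8315 and 6464 CPM and summed hypoxia members at 2768 and 3251 CPM. Barcodes above the mitochondrial limit (443 and 560) held 3753 and 4358 CPM of glycolysis and 1693 and 2856 CPM of hypoxia members. Barcodes below the gene minimum (170 and 95) held 738 and 926 CPM of glycolysis and 448 and 787 CPM of hypoxia members. The kept cells held 9173 and 7395 CPM and 3798 and 4933 CPM. In each of these 3 sets outside the limits the hypoxia members stood higher in the library labelled 4T1m, as in the kept cells together. Kept granulocytic-like cells pooled over clusters had a log2 ratio of -0.06, but within their single clusters only cluster 4 was lower (-0.20). The glycolysis members stood lower in the library labelled 4T1m in kept cells and above the UMI or gene limit. They stood higher in it above the mitochondrial limit and below the gene minimum. No replicate bears on this, and the cell types of these barcodes were not determined.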

How the results depend on the processing

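Of 160 summary values under alternatives 28 moved, and of 612 values of the 36 called member ratios 555 kept their call, 55 kept their direction without it and 2 turned. Monocytic-like over granulocytic-like, members called higher in the library labelled 4T1p (1 as reported) were 3 among barcodes with a Ptprc UMI, 3 at a 1.5-fold limit, 2 at 20 UMIs or more, 2 by CPM without mitochondrial, ribosomal protein and rRNA genes, and 0, Eno2 being lost, with log-normalization, TMM scaling, cells weighted equally, cells thinned to 1000 UMIs or 200 UMIs or more. In that labelled 4T1m they were (5 as reported) 2 with TMM scaling, 1 with thinning and 3 at 200 UMIs or more, and those called lower (8 as reported) were 18 with TMM scaling, 13 with cells weighted equally, 15 at 1.5-fold, and 5 at a mitochondrial share of at most 5% or by CPM without the genes above. Between libraries in monocytic-like cells, 7 members (thinned) and 9 (1.5-fold) were higher, against 3, and 1 was lower, against 2, at a mitochondrial share of at most 5%, with thinning or at 200 UMIs or more. In granulocytic-like cells, against 1, 2 were lower at a mitochondrial share of at most 5% or with equal weights, 4 with thinning and 11 at 1.5-fold. Slc2a3 in monocytic-like cells turned to -0.23 with cells weighted equally, and Adm to 0.40 with thinning. Leaving out the 3 monocytic-like clusters of low UMI count, chosen after seeing the data, gave 2 higher between lineages in the library labelled 4T1p and 1 lower between libraries. These counts under alternatives, those at 1.5-fold and with TMM scaling among them, are of members only, without the share of all genes called. The causes were not tested beyond the smaller or larger number of genes that a UMI limit or a fold limit admits. No paired analysis was possible because each tumor type had 1 library. Depth limits the calls of Slc2a3, Adm, Eno2 and P4ha2 most, which rest on few UMIs in 1 lineage.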
